A study of Mus musculus with 32 samples.

Results

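The genes described are 10 members of the semaphorin guidance system in mouse cerebral cortex: the ligands Sema6d, Sema6a, Sema3e, Sema7a and Sema4a, the plexins Plxna1, Plxna2 and Plxna4, and the neuropilins Nrp1 and Nrp2. They were chosen by symbol, and each matched 1 of the 55401 rows of a table of raw RNA-seq counts. RNA of cortex from 32 mice, all 6 weeks old, was counted. There were 10 Ts65Dn;Df(17)2 animals, 10 Dp(16)1/Df(16)8 animals and 12 +/+ animals, each genotype with equal numbers of females and males by label. As background, Ts65Dn adds a freestanding chromosome that carries a distal part of chromosome 16 together with a piece of chromosome 17, and the deficiency Df(17)2 offsets the chromosome 17 piece. Dp(16)1 instead holds an additional stretch of chromosome 16 in tandem within the chromosome, and the deficiency Df(16)8 on the other homologue offsets what Ts65Dn lacks, so that both genotypes keep much the same genes in 3 copies. The +/+ mice carry none of these alleles. The series sets the chromosomal form of the trisomy against its gene content. No member lies on chromosome 16 or 17, so none gains a copy in either genotype.

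Semaphorins are secreted or membrane-bound cues that steer axons, dendrites and synapses, and they are read by plexins, which act on small GTPases of the cytoskeleton. Secreted class 3 semaphorins mostly bind through a neuropilin, with a plexin of the A group as the signalling subunit: Nrp2 is the main receptor of Sema3f and Nrp1 that of Sema3a. Class 6 semaphorins are transmembrane ligands that bind plexin A proteins without a neuropilin. In cortex the family is known for axon guidance, for the targeting of projections, and for the pruning and number of synapses.

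RefSeq promoter windows of GRCm38.p6 (250 bases before to 50 after a transcript start) were matched by symbol for 7 of the 10 genes. The 4 windows printed belong to the class 6 ligand that rose most clearly (Sema6d, with both of its listed starts) and to the genes with the largest fold changes in either direction (Nrp2 and Sema7a). Capitals mark GGGCGG or its reverse complement CCGCCC, the GC box bound by Sp-family factors, searched on both strands.
Sema6d, first start, plus strand, chr2:124089719-124090018: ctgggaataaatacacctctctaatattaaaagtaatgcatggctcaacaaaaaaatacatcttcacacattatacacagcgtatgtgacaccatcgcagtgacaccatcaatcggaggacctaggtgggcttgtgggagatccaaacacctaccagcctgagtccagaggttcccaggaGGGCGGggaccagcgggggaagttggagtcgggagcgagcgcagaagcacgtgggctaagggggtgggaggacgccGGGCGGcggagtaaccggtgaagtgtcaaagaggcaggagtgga
Sema6d, second start, plus strand, chr2:124653331-124653630: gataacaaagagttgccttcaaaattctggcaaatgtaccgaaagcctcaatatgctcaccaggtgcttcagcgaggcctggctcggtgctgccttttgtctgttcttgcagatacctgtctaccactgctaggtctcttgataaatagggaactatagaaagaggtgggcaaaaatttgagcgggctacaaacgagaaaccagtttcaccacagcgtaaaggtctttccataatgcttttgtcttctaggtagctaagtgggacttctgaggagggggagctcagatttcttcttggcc
Nrp2, plus strand, chr1:62703067-62703366: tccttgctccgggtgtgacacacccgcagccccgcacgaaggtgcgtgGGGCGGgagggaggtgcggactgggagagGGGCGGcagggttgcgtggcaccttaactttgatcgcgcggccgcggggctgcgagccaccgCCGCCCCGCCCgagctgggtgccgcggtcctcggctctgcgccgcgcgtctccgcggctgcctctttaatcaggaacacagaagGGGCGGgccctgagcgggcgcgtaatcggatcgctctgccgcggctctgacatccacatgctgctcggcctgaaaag
Sema7a, plus strand, chr9:57939862-57940161: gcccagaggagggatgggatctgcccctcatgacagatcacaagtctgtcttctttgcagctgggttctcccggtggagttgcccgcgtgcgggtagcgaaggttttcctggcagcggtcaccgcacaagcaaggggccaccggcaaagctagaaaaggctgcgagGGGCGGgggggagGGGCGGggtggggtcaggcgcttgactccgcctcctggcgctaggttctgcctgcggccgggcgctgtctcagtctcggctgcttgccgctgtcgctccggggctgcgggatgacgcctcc
The Nrp2 window held 5 GC boxes, of which a pair overlaps by a base. The first Sema6d window and the Sema7a window held 2 each, and the second Sema6d window held 0. Of 32851 such windows in the RefSeq table, 35.7% had at least 1 GC box and 13.6% had TATAAA on either strand, and no window of a member had TATAAA. G and C made up 70.7% of the Nrp2 window, 67.3% of the Sema7a window, 54.3% of the first Sema6d window and 46.7% of the second, against a median of 52.7% over all windows. These matches describe the letters of the windows and say nothing of binding.

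Library totals ran from 5795479 to 11189548 counts, with the median at 8213596 for Ts65Dn;Df(17)2, at 7753842.5 for Dp(16)1/Df(16)8 and at 7547437.5 for +/+. Every library has an animal number of its own in the labels, so the replicates are separate animals. The labelled sex went with Xist and Y-linked counts in 31 of 32 libraries; the exception, Dp(16)1/Df(16)8 replicate 2, is labelled female and had 14 counts of Xist and 696 of Ddx3y. Leaving it out gave the same number of members past the threshold in every comparison. Markers of cortical excitatory neurons, interneurons and glia were detected in all libraries. Markers of the choroid plexus, a tissue of the ventricles, varied most of the 12 marker lists relative to their level. Of the 4 genes listed, 2 passed the filter on low counts, and the summed level is that of these 2. It ran from 8.51 to 70.8 CPM in Ts65Dn;Df(17)2, against 5.12 to 616 CPM in Dp(16)1/Df(16)8 and 8.82 to 952 CPM in +/+. The part of the choroid plexus markers in the results was not tested. Markers of striatal neurons, whose tissue lies next to the cortex, also varied widely: in Ts65Dn;Df(17)2 their summed level ran from 899.7 to 3329 CPM, against 371 to 3664 CPM in Dp(16)1/Df(16)8 and 274 to 3757 CPM in +/+. CPM is the usual scaling of read counts to library size, here with TMM factors. Values are given as the lowest, median and highest library, or as mean ± SD over the animals of a genotype.

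Per length, Sema7a had the highest level of the 10 genes and Nrp1 the lowest. On the scale of CPM per kilobase of exon, Sema7a, a GPI-anchored ligand of integrin beta 1 and plexin C1, averaged 26.8 ± 7.01 in the 10 Ts65Dn;Df(17)2 animals, 29 ± 11.2 in the 10 Dp(16)1/Df(16)8 animals and 38.3 ± 15.8 in the 12 +/+ animals (SD). In +/+ the 3 plexins followed, with Plxna2 at 19.8 ± 1.53, Plxna4 at 19.1 ± 1.79 and Plxna1 at 16.6 ± 3.19 (SD, n = 12), and these neighbours did not differ beyond their spread. Sema6d came next at 10.2 ± 1.48, apart from Plxna1 above it and from Sema6a below it at 7.74 ± 0.769. Nrp2 (7.05 ± 3.37), Sema4a (6.17 ± 0.914), Sema3e (4.81 ± 0.978) and Nrp1 (3.67 ± 1.21) completed the +/+ order, each within the spread of its neighbour. In both aneuploid genotypes the order was the same but for Nrp2, which stood above Sema6a: Nrp2 averaged 10.8 ± 2.2 and Sema6a 9.27 ± 1.4 in Ts65Dn;Df(17)2, and Nrp2 9.6 ± 2.96 and Sema6a 8.72 ± 0.825 in Dp(16)1/Df(16)8 (SD, n = 10 each).

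Among 31 semaphorin, plexin and neuropilin genes ranked per length in +/+, the 10 genes fell between rank 1 (Sema7a) and rank 23 (Nrp1). The other highly ranked genes were Sema6b at 26.8 ± 2.89, a class 6 ligand, and Plxnd1 at 19.7 ± 5.62, the receptor that binds Sema3e directly (SD, n = 12). Plxnc1, a receptor of Sema7a, averaged 12 ± 3.17. The secreted Sema3b was lowest, at 0.48 ± 0.199.

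**Figure D1:**
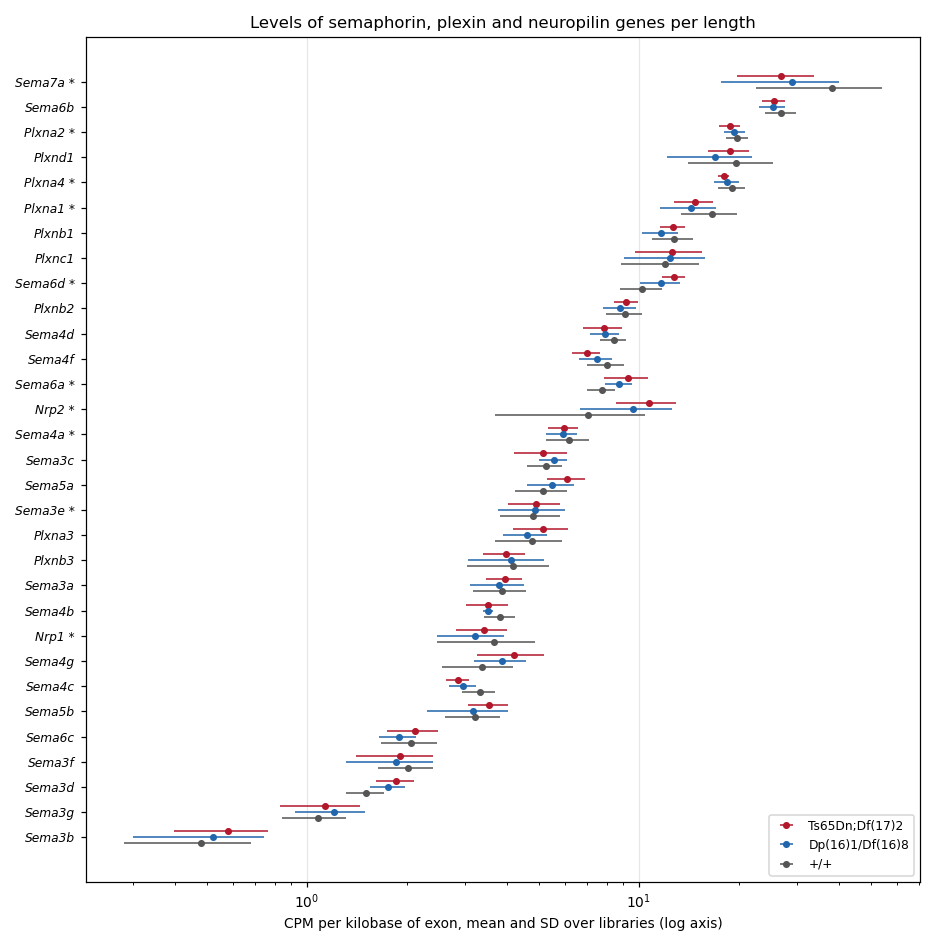
Mean level of each semaphorin, plexin and neuropilin gene in CPM per kilobase of exon (log axis), with SD over animals, in Ts65Dn;Df(17)2 (10), Dp(16)1/Df(16)8 (10) and +/+ (12). Asterisks mark the 10 genes described. Sema7a stands highest at 38.3 in +/+, the genotypes lie close together for the plexins, and Nrp2 has the widest spread of the neuropilins.

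In Ts65Dn;Df(17)2 cortex against +/+ cortex, the class 6 ligands Sema6d and Sema6a rose, by 1.25-fold and 1.2-fold, and the other 8 genes did not pass the threshold. The comparison asks what the freestanding trisomic chromosome is accompanied by. Passing means an adjusted p under 0.05 in edgeR's quasi-likelihood test, adjusted by Benjamini and Hochberg's method over all 16042 genes tested, which included all 10 members. Of all genes tested, 3.97% passed (1.75% higher and 2.22% lower). The median log2 fold change of the 10 genes was -0.06, against 0.0048 over all genes tested. Whole tissue was sequenced, so fewer cells of a type and less RNA per cell cannot be told apart.

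Sema6d, a transmembrane ligand of plexin A1 (ENSMUSG00000027200.17, GRCm38 chromosome 2, 124089969 to 124667770, plus strand), had 122, 132 and 154 CPM as the lowest, median and highest Ts65Dn;Df(17)2 library, against 92.4, 107 and 150 CPM in +/+. The ranges overlapped through +/+ replicate 11 alone, at 150 CPM; the next +/+ library had 117 CPM, below every Ts65Dn;Df(17)2 library. The log2 fold change was 0.32 (SE 0.0708; 95% interval 0.17 to 0.46), higher than the +/+ mean in 10 of 10 animals, with an adjusted p of 0.0108 by edgeR's quasi-likelihood test. It passed with each of the 32 libraries left out in turn, at log2 fold changes of 0.29 to 0.37. The call was lost with a score of striatal markers as a term (log2 fold change 0.21, edgeR adjusted p = 0.0954) and with one of upper-layer markers (0.11, 0.396), both described further on.

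Sema6a, a transmembrane ligand of plexins A2 and A4 (ENSMUSG00000019647.16, GRCm38 chromosome 18, 47235598 to 47368870, minus strand), had 71.5, 77.0 and 110.1 CPM in Ts65Dn;Df(17)2 (lowest, median, highest), against 59.6, 67.4 and 83.2 CPM in +/+. Here 3 Ts65Dn;Df(17)2 libraries were above the highest +/+ library and 10 of 10 were above the +/+ mean. The log2 fold change was 0.26 (SE 0.0682; 95% interval 0.12 to 0.40), with an adjusted p of 0.0306 by edgeR's quasi-likelihood test. The call was lost when 1 of 9 libraries was left out (+/+ replicates 4, 5, 7, 9 and 10, Ts65Dn;Df(17)2 replicates 2, 3, 6 and 7), at edgeR adjusted p of 0.0526 to 0.066; without Ts65Dn;Df(17)2 replicate 6, the highest library, the log2 fold change was 0.20.

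Nrp2, a receptor subunit for Sema3f (ENSMUSG00000025969.15, GRCm38 chromosome 1, 62703285 to 62818695, plus strand), had the largest fold change of the 10 genes and did not pass. It had 70.2, 129 and 163 CPM in Ts65Dn;Df(17)2 (lowest, median, highest), against 26.6, 88.6 and 144 CPM in +/+. Within +/+, replicates 1, 4 and 5 had 26.6, 33.1 and 34.4 CPM, while replicates 11 and 12 had 144 and 143 CPM, so the +/+ animals alone covered most of the range. The fold was 1.57 (95% interval 1.14 to 2.17), higher in 9 of 10 animals, with an adjusted p of 0.0895 by edgeR's quasi-likelihood test. Without +/+ replicate 11 the adjusted p of the same test was 0.0431.

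Nrp1, which reads Sema3a and VEGF (ENSMUSG00000025810.9, GRCm38 chromosome 8, 128358604 to 128503363, plus strand), had 26.2, 33.4 and 44.3 CPM in Ts65Dn;Df(17)2, against 22.9, 31.7 and 61.1 CPM in +/+. The groups overlapped over the whole Ts65Dn;Df(17)2 range, at a fold of 0.943 (95% interval 0.779 to 1.14). As a share of the summed per-length level of both neuropilins, Nrp2 took 75.6 ± 3.62% in Ts65Dn;Df(17)2 and 62.6 ± 18.1% in +/+ (SD, n = 10 and 12). The share ran from 68.9% to 79.5% in Ts65Dn;Df(17)2 and from 30.9% to 79.5% in +/+, so the +/+ animals were spread over a far wider range.

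Sema7a (ENSMUSG00000038264.8, GRCm38 chromosome 9, 57940112 to 57962865, plus strand) had 52.7, 84.5 and 120.2 CPM in Ts65Dn;Df(17)2, against 72.8, 105 and 226 CPM in +/+. All 10 Ts65Dn;Df(17)2 animals were below the +/+ mean of 126 CPM, a mean carried by +/+ replicates 1, 4 and 5 at 226, 208 and 189 CPM. The fold was 0.719 (95% interval 0.554 to 0.933), with an unadjusted p of 0.0149 and an adjusted p of 0.125 by edgeR's quasi-likelihood test. The same 3 +/+ animals had the lowest Nrp2 levels.

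The secreted Sema3e, the ligand of plexin D1 (ENSMUSG00000063531.7, GRCm38 chromosome 5, 14025276 to 14256689, plus strand), had 36.7, 45.4 and 62.2 CPM in Ts65Dn;Df(17)2, against 29.1, 43.4 and 58.9 CPM in +/+. The transmembrane Sema4a, a ligand of plexins of the B group (ENSMUSG00000028064.17, GRCm38 chromosome 3, 88435959 to 88461182, minus strand), had 27.6, 31.5 and 37.3 CPM, against 25.04, 33.4 and 40.3 CPM in +/+. Both pairs of ranges overlapped almost whole. The folds were 1.03 for Sema3e (95% interval 0.87 to 1.21) and 0.966 for Sema4a (95% interval 0.872 to 1.07).

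The plexins, the signalling receptors of class 3 and class 6 ligands, had folds below 1 and did not pass. Plxna1 (ENSMUSG00000030084.11, GRCm38 chromosome 6, 89316314 to 89362620, minus strand) had 113, 135 and 169 CPM in Ts65Dn;Df(17)2, against 103, 147 and 199 CPM in +/+, a fold of 0.89 (95% interval 0.772 to 1.03). Plxna2 (ENSMUSG00000026640.12, GRCm38 chromosome 1, 194618218 to 194816869, plus strand) had 288, 321 and 358 CPM, against 291, 337 and 385 CPM in +/+, a fold of 0.948 (95% interval 0.886 to 1.01). For both, the Ts65Dn;Df(17)2 range lay mostly inside the +/+ range. Plxna4 (ENSMUSG00000029765.12, GRCm38 chromosome 6, 32144268 to 32588192, minus strand) had 238, 255 and 268 CPM in Ts65Dn;Df(17)2, against 243, 267 and 321 CPM in +/+. All 10 Ts65Dn;Df(17)2 animals were below the +/+ mean, at a fold of 0.941 (95% interval 0.878 to 1.01). Plxna4 and Plxna2 were the most even of the 10 genes in each genotype: the coefficient of variation was 3.95% for Plxna4 and 7.38% for Plxna2 in Ts65Dn;Df(17)2, and 9.36% for Plxna4 and 7.70% for Plxna2 in +/+.

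**Figure D2:**
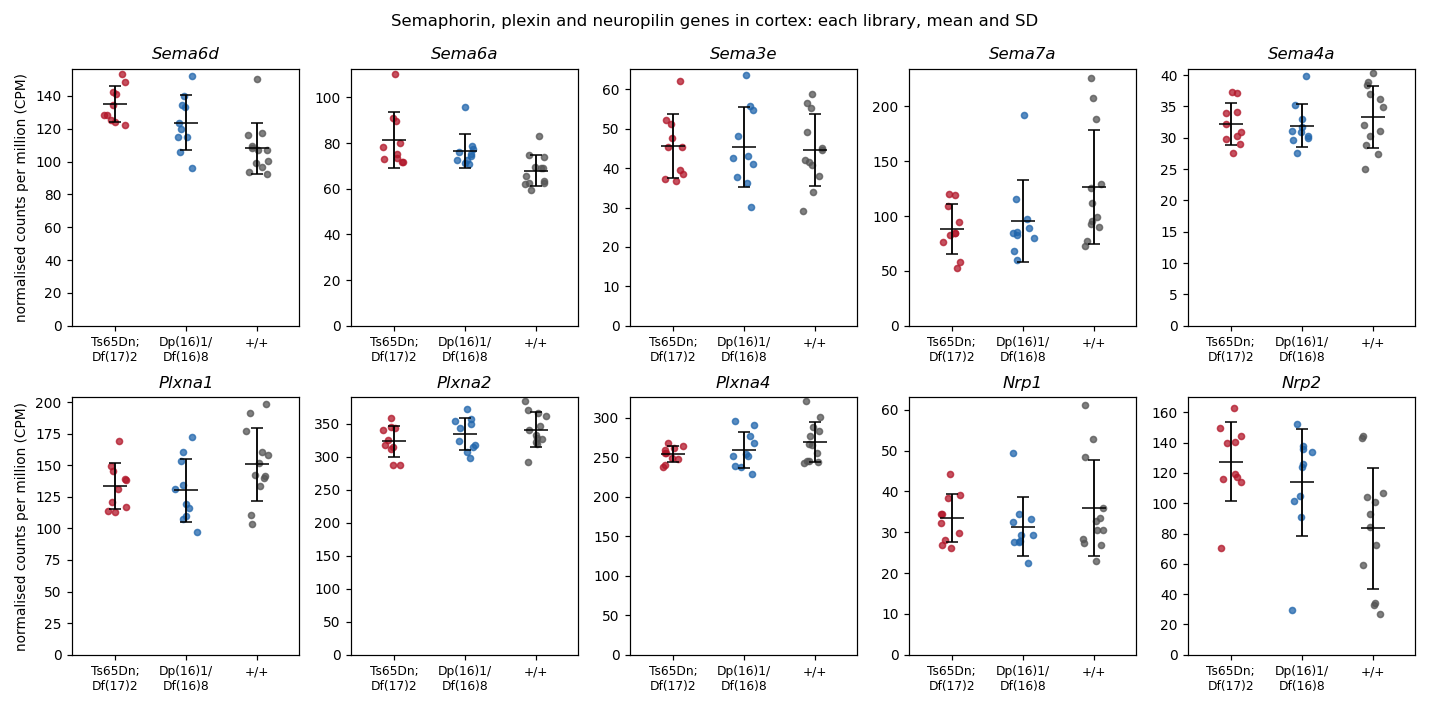
Normalised CPM of the 10 genes in each library (points), with mean and SD (black), for Ts65Dn;Df(17)2 (left, 10), Dp(16)1/Df(16)8 (middle, 10) and +/+ (right, 12); each axis starts at 0. Sema6d lies at 122 to 154 in Ts65Dn;Df(17)2 with 1 +/+ library among them, and Sema7a and Nrp2 spread most in +/+.

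In Dp(16)1/Df(16)8 cortex against +/+ cortex, which asks what the tandem form of the trisomy is accompanied by, no member passed the threshold, with 0.573% of all genes tested passing. By unadjusted p under 0.05, 4 of the 10 genes stood out in edgeR (Sema6d, Sema6a, Nrp2 and Plxna1), as did 12.8% of all genes tested, and DESeq2 and limma voom each called 0 after adjustment. The +/+ animals are the same as in the comparison above, so the values of both genotypes share that reference.

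Sema6d had 96.1, 122 and 152 CPM in Dp(16)1/Df(16)8 (lowest, median, highest), against 92.4, 107 and 150 CPM in +/+, a fold of 1.14 (95% interval 1.03 to 1.26). The ranges overlapped almost whole, 8 of 10 animals were above the +/+ mean, and the adjusted p was 0.257 by edgeR's quasi-likelihood test. Sema6a had 70.8, 74.9 and 95.7 CPM in Dp(16)1/Df(16)8, against 59.6, 67.4 and 83.2 CPM in +/+, a fold of 1.12 (95% interval 1.02 to 1.24). Here 10 of 10 animals were above the +/+ mean, with an adjusted p of 0.296 by the same edgeR test.

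Nrp2 had 29.4, 125 and 152 CPM in Dp(16)1/Df(16)8, against 26.6, 88.6 and 144 CPM in +/+, a fold of 1.41 (95% interval 1.02 to 1.95; edgeR adjusted p = 0.363). In Dp(16)1/Df(16)8, 9 of 10 animals were above the +/+ mean, and replicate 1 was the lowest of its genotype. Sema7a had 60.2, 85.4 and 192 CPM in Dp(16)1/Df(16)8, against 72.8, 105 and 226 CPM in +/+, a fold of 0.772 (95% interval 0.595 to 1.00; edgeR adjusted p = 0.392). The 192 CPM belonged to the same replicate 1, and the other 9 animals were below the +/+ mean. Plxna1 had 97.0, 125 and 173 CPM in Dp(16)1/Df(16)8, against 103, 147 and 199 CPM in +/+, a fold of 0.866 (95% interval 0.751 to 0.998; edgeR adjusted p = 0.385). The folds of the other 5 genes lay between 0.883 (Nrp1) and 1.02 (Sema3e).

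Between Ts65Dn;Df(17)2 and Dp(16)1/Df(16)8, which compares the freestanding with the tandem form, no member passed; 0.0499% of all genes tested did. These genotypes share 0 blocks of neighbouring animal numbers (2 blocks hold the Ts65Dn;Df(17)2 animals and 4 the Dp(16)1/Df(16)8 animals), so the chromosomal form and the number block cannot be told apart by direct comparison. With the block as a term, which links the genotypes through +/+ animals alone, 0 of the 8 genes passing over the whole table were left. None of the 10 had an unadjusted p under 0.05 in edgeR, beside 4.1% of all genes tested, and DESeq2 and limma voom called 0. Sema6d averaged 135 ± 10.9 CPM in Ts65Dn;Df(17)2 and 124 ± 16.8 CPM in Dp(16)1/Df(16)8, a log2 fold change of 0.13 (95% interval -0.03 to 0.28). Sema6a averaged 81.4 ± 12.3 CPM in Ts65Dn;Df(17)2 and 76.5 ± 7.24 CPM in Dp(16)1/Df(16)8, a log2 fold change of 0.09 (95% interval -0.06 to 0.23). Nrp2 averaged 127 ± 26.1 CPM in Ts65Dn;Df(17)2 and 114 ± 35.1 CPM in Dp(16)1/Df(16)8, a log2 fold change of 0.16 (95% interval -0.33 to 0.64). Each interval held 0, so the rise of Sema6d and Sema6a in Ts65Dn;Df(17)2 was not shown to differ from their values in Dp(16)1/Df(16)8.

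**Figure D3:**
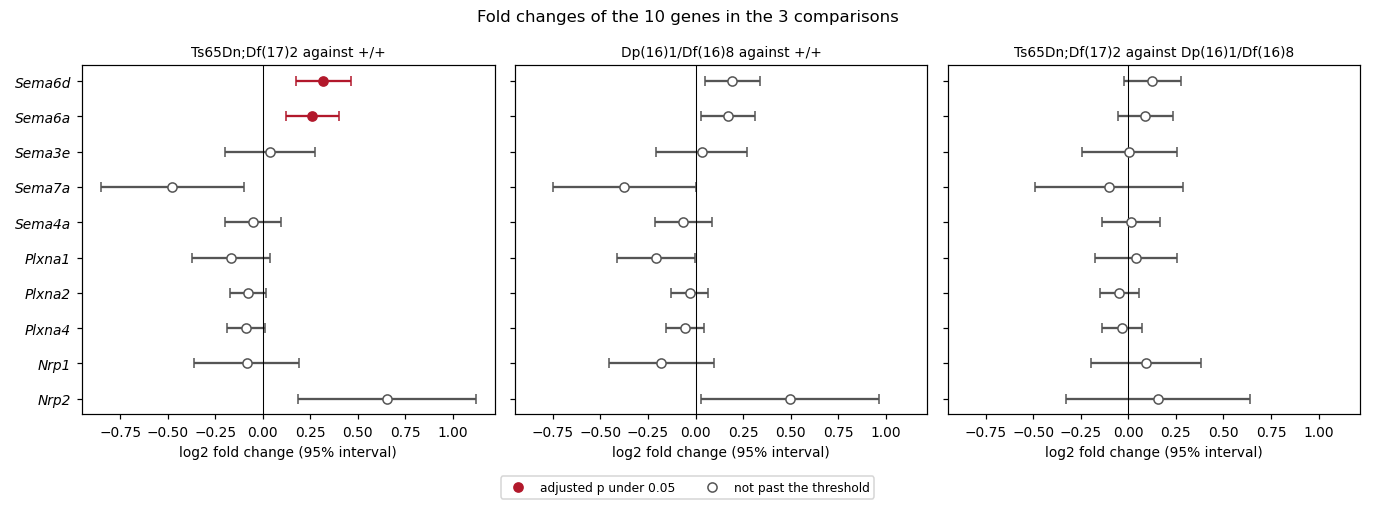
Log2 fold changes of the 10 genes with 95% intervals, for Ts65Dn;Df(17)2 against +/+ (left), Dp(16)1/Df(16)8 against +/+ (middle) and Ts65Dn;Df(17)2 against Dp(16)1/Df(16)8 (right). Filled red points passed an adjusted p of 0.05: Sema6d at 0.32 and Sema6a at 0.26, both in the left panel.

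No member's genotype effect differed by sex past the threshold (edgeR interaction test, adjusted p 0.94 to 0.985 for Ts65Dn;Df(17)2 and 0.957 to 0.993 for Dp(16)1/Df(16)8; 0% of all genes passed). By unadjusted p under 0.05 in the same test there was 1 member in Ts65Dn;Df(17)2, Nrp1, and 0 in Dp(16)1/Df(16)8, beside 4.91% and 5.01% of all genes tested. For Nrp1 the log2 fold change against +/+ was -0.36 in Ts65Dn;Df(17)2 females and 0.21 in males. For Nrp2 it was 1.03 in Ts65Dn;Df(17)2 females and 0.32 in males, and 0.93 in Dp(16)1/Df(16)8 females and 0.09 in males. The unadjusted p of these differences by sex was 0.121 and 0.0698 by the edgeR interaction test. Both share the +/+ females, among them replicates 1, 4 and 5 with the lowest Nrp2 levels. The Dp(16)1/Df(16)8 females include replicate 2, whose sex transcripts go against its label. For Sema6d it was 0.34 in Ts65Dn;Df(17)2 females and 0.30 in males.

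Several members varied with how much striatal or upper-layer marker RNA a library held. The mean scores of these markers were also unequal between the genotypes, though the scores themselves were not tested by genotype. The striatal score, the mean log2 CPM of 15 striatal genes such as Drd1, Drd2 and Ppp1r1b, averaged 6.09 ± 0.608 in Ts65Dn;Df(17)2 animals, 5.49 ± 1.41 in Dp(16)1/Df(16)8 animals and 4.87 ± 1.43 in +/+ animals (SD, n = 10, 10 and 12). None of the 15 genes passed in either comparison with +/+ by edgeR, all 15 had positive log2 fold changes in both, and 2 were at 0 in some library. The upper-layer score, from 10 genes such as Cux2 and Rorb, averaged 6.13 ± 0.175 in Ts65Dn;Df(17)2 animals, 6.28 ± 0.326 in Dp(16)1/Df(16)8 animals and 6.52 ± 0.248 in +/+ animals. Of these 10 genes, 6 fell past the threshold in Ts65Dn;Df(17)2, beside 2.22% of all genes tested, and 0 in Dp(16)1/Df(16)8. Positive log2 fold changes were found for 2 of the 10 in each comparison with +/+. The summed level of the 10 was 724 to 960.2 CPM in Ts65Dn;Df(17)2, against 649 to 1299 CPM in Dp(16)1/Df(16)8 and 732 to 1319 CPM in +/+. No member is on either list.

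With genotype and sex in the fit, 6 of the 10 genes varied with the striatal score by edgeR's test, against 27.6% of all genes tested. Per unit of score, which is a doubling of the markers on average, the log2 level of Plxna1 fell by 0.17 (adjusted p = 2.15e-08), that of Nrp1 by 0.18 (adjusted p = 0.000515), that of Plxna4 by 0.07 (adjusted p = 0.00032) and that of Sema4a by 0.07 (adjusted p = 0.0378). Sema6d rose by 0.10 per unit (adjusted p = 0.000345) and Nrp2 by 0.24 (adjusted p = 0.0143), by the same edgeR test. The +/+ animals at the ends of the striatal score serve as examples. Replicates 4 and 5, with the lowest striatal scores, had 199 and 177 CPM of Plxna1 and 61.1 and 52.9 CPM of Nrp1. Replicates 8 and 6, with the highest, had 111 and 103 CPM of Plxna1 and 22.9 and 27.2 CPM of Nrp1. For Nrp2 the first pair had 33.1 and 34.4 CPM, and the second pair 106 and 104 CPM. Not every +/+ animal followed this order for Nrp2. Replicate 3 had 92.7 CPM at a striatal score of 3.75, and replicate 1 had 26.6 CPM at a score of 4.36.

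The scores ran opposite to each other at the ends of the +/+ striatal range. Replicates 4 and 5, lowest in striatal score, had upper-layer scores of 6.629 and 6.768, and replicates 8 and 6, highest, had 6.165 and 6.319. Fits with either score are thus not separate evidence. With the upper-layer score in place of the striatal score, 5 of the 10 genes varied with it, against 28.9% of all genes tested. Per unit, the log2 level of Sema6d fell by 0.57 (edgeR adjusted p = 1.74e-07), that of Sema6a by 0.28 (0.0465) and that of Nrp2 by 1.26 (0.00373), while Plxna1 rose by 0.53 (0.00661) and Plxna4 by 0.28 (0.0019). Sema7a had a slope of 0.62 that did not pass (edgeR adjusted p = 0.136), as did Plxna2 at 0.19 (0.054). Sema3e, Sema7a and Plxna2 passed with neither score. Beside the members, the Sema3a ligand gene fell with the striatal score (log2 slope -0.15, edgeR adjusted p = 2.78e-05) and rose with the upper-layer score (0.77, 8.26e-06), and the Sema3f gene did the reverse (0.19, 0.00256; -0.91, 0.00186). For the striatal score, Nrp1 and its ligand gene Sema3a both fell, and Nrp2 and its ligand gene Sema3f both rose. The other class 3 genes did not share 1 pattern: Sema3c fell (-0.08, edgeR adjusted p = 0.033), and Sema3b, Sema3d and Sema3g did not pass. With the upper-layer score, Nrp1 itself did not pass (0.31, edgeR adjusted p = 0.355).

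**Figure D4:**
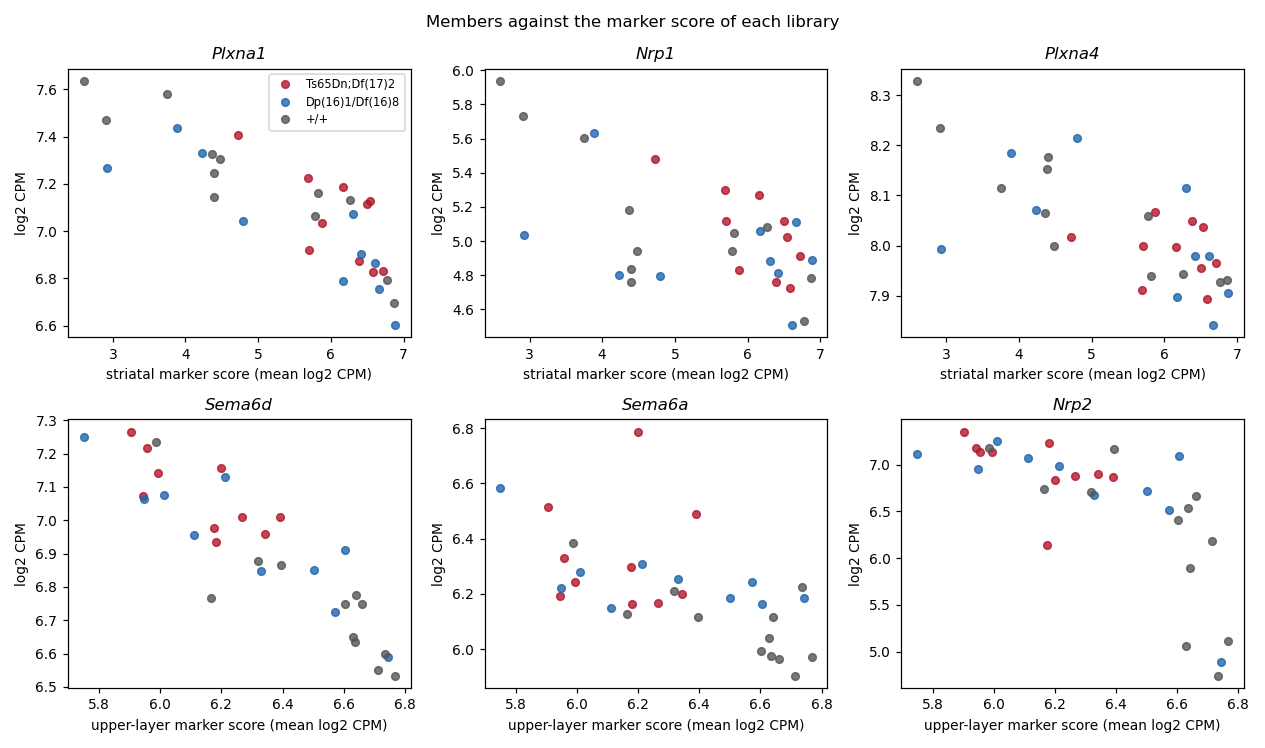
Log2 CPM of 6 of the 10 genes in each of the 32 libraries against the striatal score (top: Plxna1, Nrp1, Plxna4) or the upper-layer score (bottom: Sema6d, Sema6a, Nrp2), both mean log2 CPM of marker genes. Points are coloured red for Ts65Dn;Df(17)2, blue for Dp(16)1/Df(16)8 and grey for +/+; all 6 genes slope downward, and the Ts65Dn;Df(17)2 points lie toward high striatal and low upper-layer scores.

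With a score as a term, neither Sema6d nor Sema6a passed in Ts65Dn;Df(17)2 against +/+. With the striatal score, the log2 fold change of Sema6d was 0.21 (edgeR adjusted p = 0.0954) and that of Sema6a 0.21 (0.18), and 0.954% of all genes passed. With the upper-layer score, that of Sema6d was 0.11 (edgeR adjusted p = 0.396) and that of Sema6a 0.16 (0.411), and 0.679% passed. Nrp2 had a log2 fold change of 0.43 with the striatal and 0.21 with the upper-layer score. Among animals numbered 32350 to 32373 alone (8 Ts65Dn;Df(17)2 and 4 +/+), that of Sema6d was 0.39 (edgeR adjusted p = 0.00809), that of Sema6a 0.29 (0.182) and that of Nrp2 0.93 (0.0436), with 4.2% of all genes passing. With the number block as a term over all animals, Sema6d kept its call (0.38, edgeR adjusted p = 0.00731) and Sema6a lost it (0.30, 0.093), with 1.22% passing.

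In Dp(16)1/Df(16)8 against +/+, 0 members passed with either score or within animal numbers (10 Dp(16)1/Df(16)8 and 8 +/+). Of all genes, 0.592% passed with the striatal score, 0.542% with the upper-layer score and 0.402% within numbers. Here the fit within numbers pooled the 4 blocks that hold Dp(16)1/Df(16)8 animals, numbered 32128 to 32406, without a block term. It thus left out only +/+ animals of another block and did not compare animals inside 1 block. The log2 fold change of Sema6d was 0.13 with the striatal score, 0.05 with the upper-layer score and 0.17 within numbers. That of Nrp2 was 0.36 with the striatal score, 0.20 with the upper-layer score and 0.41 within numbers.

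Of the 69 genes of the wider pathway (all semaphorins, plexins and neuropilins listed, their co-receptors and signalling partners, members included), 3 rose and 2 fell in Ts65Dn;Df(17)2 against +/+, at a median log2 fold change of -0.01, while 1.75% of all genes tested rose and 2.22% fell. Beside Sema6d and Sema6a, the secreted class 3 ligand gene Sema3d rose: it averaged 16.0 ± 2.12 CPM in Ts65Dn;Df(17)2 and 12.99 ± 1.7 CPM in +/+ (log2 fold change 0.30, edgeR adjusted p = 0.0373). Mical3, of a monooxygenase family known from Drosophila to act on actin downstream of plexin A, averaged 188 ± 8.08 CPM in Ts65Dn;Df(17)2 and 212 ± 12.1 CPM in +/+ (-0.17, edgeR adjusted p = 0.00944). Gipc1, an adaptor that binds the tail of Nrp1, averaged 32.7 ± 2.43 CPM in Ts65Dn;Df(17)2 and 37.9 ± 4.3 CPM in +/+ (-0.21, edgeR adjusted p = 0.0235). Gipc1 also varied with both scores, and Sema3d and Mical3 with neither, by edgeR's test.

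By class, 2 of the 4 class 6 ligand genes rose in Ts65Dn;Df(17)2, 1 of 7 class 3 genes rose, and 0 of 6 class 4 genes, 0 of 9 plexins and 0 of 2 neuropilins passed, beside the 3.97% of all genes tested that passed in either direction. The class 6 genes that did not pass were Sema6b, at a log2 fold change of -0.07, and Sema6c, at 0.03. Plxnd1, which binds Sema3e, was at -0.06, Plxnc1, which binds Sema7a, at 0.08, Sema3a at 0.03, Sema3f at -0.09, Sema3c at -0.02 and Plxna3 at 0.11. Plxnb1 was at -0.0065, Plxnb2 at 0.02, Sema4d at -0.10, and the adhesion co-receptors Chl1 and Nrcam at 0.01 and -0.14. None of the 9 co-receptors and partners passed, and 3 had an unadjusted p under 0.05 in edgeR, as did 21.8% of all genes tested. These 3, named after their values were seen, were Itgb1, the integrin beta 1 that Sema7a binds, at 0.12 (edgeR adjusted p = 0.0778), Kdr, a VEGF receptor that acts with Nrp1, at 0.41 (0.0978), and Met, a receptor that associates with plexins of the B group, at -0.83 (0.165). Itgb1 was at 0.12 (edgeR adjusted p = 0.213), Kdr at 0.55 (0.0973) and Met at -0.27 (0.777) in Dp(16)1/Df(16)8 against +/+. In Dp(16)1/Df(16)8 against +/+, 0 of the 69 passed, at a median of -0.02, and 13 had an unadjusted p under 0.05 in edgeR, beside 12.8% of all genes tested. Sema3d was at 0.22, Mical3 at -0.13 and Gipc1 at 0.02 there. Between the aneuploid genotypes 0 of the 69 passed, and 1 had an unadjusted p under 0.05 in edgeR, beside 4.1% of all genes tested. Of the 69 genes 5 lie on chromosome 16 or 17, and 0 lie between Mrpl39 and Zbtb21, the chromosome 16 stretch that both genotypes carry in an additional copy.

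Once genotype and sex means were removed, the 3 genes that varied most like each member over the 32 libraries were found by Pearson r of log2 CPM among 11586 genes, given as a description without a test, since libraries share depth and marker content. Sema7a was most like Hr, Atp2a2 and Atp2b2 (r of 0.96, 0.959 and 0.958). Nrp2 was most like Zcchc12, Gria1 and Zfp618 (0.925, 0.924 and 0.911). Sema6d was most like Stat5b, Sall2 and Isoc1 (0.923, 0.903 and 0.897). Lower values were found for Sema6a with Sall1, Dlx1 and Notch1 (0.777, 0.762 and 0.756) and for Nrp1 with Tnfrsf21, Irs1 and Tshz2 (0.779, 0.768 and 0.762). The genes most like Plxna1 included Sez6l and Ppp1r26 (0.861 and 0.853), and Plxna2 was most like Acap2, Sh3rf3 and Pitpnm2 (0.834, 0.802 and 0.784). For Plxna4 the genes were Ranbp9, Extl3 and Mapre3 (0.826, 0.812 and 0.81), and for Sema3e Sntb2, Plcl2 and Pou3f3 (0.82, 0.818 and 0.814). For Sema4a they were Irs1, Wdfy3 and Sema4d (0.686, 0.678 and 0.676). Irs1 was thus among the 3 of both Nrp1 and Sema4a. Ranbp9 and Sema4d are themselves on the pathway list.

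No member shares exon with an abundant gene. Exons overlapped only Mir7011 (Sema4a), Mir1903 (Nrp1), Plxna4os3 (Plxna4), each with 0 counts, and the antisense Gm26811 (Plxna1), with 8 counts over all libraries beside 34094 of Plxna1.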

How the data were processed

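The authors deposited 1 table of raw counts per gene, whole numbers with no normalization, for 32 libraries. Per the labels' protocols, libraries were made from 500 ng of total RNA depleted of ribosomal RNA. Per the submitters' processing notes, featureCounts (Subread 1.6.4), the aligner STAR 2.7.9a and bcl2fastq 2.20 were used. Both GRCh38 and GRCm38.p6 are named there; how each served, the strand setting and the annotation release are not given in the sources used here. Without a known strand setting, reads of antisense partners cannot be told apart. Exon lengths and coordinates came from GENCODE M21 by identifier, for 55141 of 55401 genes.

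Genes were kept by filterByExpr, which left 16042 genes, with TMM scaling. Genotype and sex were terms of a quasi-likelihood model of all 32 libraries, fitted with edgeR 4.0.16 in R 4.3.3, and p was adjusted by the Benjamini-Hochberg method over all genes tested (threshold 0.05). Log2 CPM uses a prior count of 2. A second model tested the interaction of genotype and sex. The script was tested on simulated data. Alternatives were DESeq2 1.42.0, limma voom (limma 3.58.1), size factors, no filter, no sex term, fewer samples, each library left out, marker scores, and blocks of neighbouring animal numbers, drawn at gaps in the numbers of the labels. The upper-layer score was added after seeing the data. Totals of 5795479 to 11189548 counts gave each member at least 145 counts in every library; p-values and intervals cover these animals.

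The members, marker lists and pathway list were chosen with earlier results of these data known. Named genes are all members, pathway genes past the threshold in any comparison, a fixed set of receptors, ligands and partners of members, and the 3 genes most like each member, of which 1 is not reported here. No 2 libraries of a genotype agreed within sampling noise (mean chi-square per gene 2.56 to 30.0 over 156 pairs). Sequences are RefSeq's, of GRCm38.p6; those of Sema6a, Plxna1 and Plxna4 were not used here.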

Additional observations from a re-analysis of the deposited data

Results flagged for a closer look

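In 6 of the 20 sets formed by a member and an aneuploid genotype, 1 library stood far from the others of its genotype. Chance gives this in about 1 in 20 sets where values are normally distributed and sets independent. The sets here share libraries, so the 6 cannot be weighed against that rate. Dp(16)1/Df(16)8 replicate 1 did so for 3 genes: Nrp2 was 29.4 CPM there, with the next lowest library at 91.2 CPM, Nrp1 was 49.3 CPM, with the next highest at 34.4 CPM, and Sema7a was 192 CPM, with the next highest at 116 CPM. That library had a striatal score of 3.89 and the highest upper-layer score of its genotype, 6.74. The lowest striatal score of that genotype was 2.92, in replicate 10. Nrp2 was 91.2 CPM there, Nrp1 32.5 CPM and Sema7a 68.1 CPM. Sema6a was 95.7 CPM in Dp(16)1/Df(16)8 replicate 4, with the next highest library at 78.9 CPM, and that library had the lowest upper-layer score of its genotype, 5.75. Sema6a was 110.1 CPM in Ts65Dn;Df(17)2 replicate 6, with the next highest at 91.1 CPM. The upper-layer score of that library was 6.20, above its genotype mean of 6.13, though Sema6a fell with this score over all libraries. Nrp2 was 70.2 CPM in Ts65Dn;Df(17)2 replicate 5, with the next lowest at 114 CPM. The striatal score of that library was 6.58, above its genotype mean of 6.09, though Nrp2 rose with this score over all libraries. The part of marker content in these single libraries was not tested.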

How the results depend on the processing

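The count of members past the threshold in Ts65Dn;Df(17)2 against +/+ (2) was 0 with the striatal score as a term, 0 with the upper-layer score and 1 with the animal number block; leaving out 1 library gave 1 to 3, the 3 without +/+ replicate 11, where Nrp2 also passed. It was 2 under the other settings, though within animal numbers the genes were Sema6d and Nrp2, and Dp(16)1/Df(16)8 against +/+ and Ts65Dn;Df(17)2 against Dp(16)1/Df(16)8 stayed at 0 under the settings run, leaving out each library included (0 to 0). Animals within numbers could not be used for the second of these, whose genotypes share 0 number blocks. The interaction, rerun without each library in turn alone, stayed at 0 (0 to 0). Over all genes, the count passing in Ts65Dn;Df(17)2 against +/+ was 637, and 264 to 1486 with 1 library left out; it was 331 with no filter, 1069 by DESeq2, 280 without the animals numbered below 30000, 153 with the striatal score, 109 with the upper-layer score and 195 with the block. In Dp(16)1/Df(16)8 against +/+ it was 92, with 145 by DESeq2 and 74 to 222 with 1 library left out, and between the aneuploid genotypes it was 8, with 0 under the block. The cause was not tested.

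No member past the threshold changed sign. The log2 fold changes of members that had not passed did as follows. In Ts65Dn;Df(17)2 against +/+, the striatal score gave Sema3e -0.00826, Sema4a 0.0303, Plxna1 0.057 and Nrp1 0.145, and the upper-layer score gave Sema3e -0.00148, Plxna1 0.048, Plxna4 0.0227 and Nrp1 0.0352. In Dp(16)1/Df(16)8 against +/+, the upper-layer score gave Plxna2 0.0182 and Plxna4 0.0123, and animals within numbers gave Sema3e -0.0179. In Ts65Dn;Df(17)2 against Dp(16)1/Df(16)8, Sema3e was -0.00799 without the animals numbered below 30000, -0.0156 without the library whose sex transcripts go against its label, -0.016 with the striatal and -0.00881 with the upper-layer score; Plxna4 was 0.00716, 0.0103 and 0.0533 with the striatal score, the upper-layer score and the block, and Plxna1 was -0.137 with the block. Leaving out 1 library, Sema3e ran from -0.0174 to 0.0772, from -0.02997 to 0.0955 and from -0.0565 to 0.0634 in the 3 comparisons, and between the aneuploid genotypes Sema7a ran from -0.173 to 0.0324 and Sema4a from -0.018 to 0.0474.

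No paired analysis was possible because the labels carry animal numbers and no replicate numbers shared between genotypes. Intervals of Nrp2 and Sema7a are wide, so differences of their size between the aneuploid genotypes were not detectable with these animals.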
